A study of Mus musculus with 12 samples.

Results

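The nuclear-encoded subunits of oxidative phosphorylation were examined in rod photoreceptors and in the whole retina of mice with and without *Pkm2* in rods. The genes were chosen by symbol alone, as every row named *Nduf* followed by a, b, c, s or v and a digit, *Uqcr*, *Cox4* to *Cox8* or *Atp5*. After 14 pseudogenes marked with ps were left out, 87 of 56748 genes remained. By role, 40 belong to complex I, 8 to complex III, 21 to complex IV and 18 to complex V. Among them are 5 near-identical gene copies (*Ndufa11b*, *Ndufb11b*, *Ndufb4c*, *Ndufs6b* and *Cox6c2*) and 8 isoforms of complex IV known from particular tissues. The remaining genes are called common subunits here.

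Translating ribosome affinity purification (TRAP) isolates mRNA bound to tagged ribosomes of one cell type. All mice carried the RiboTag allele, which gains an HA tag on a ribosomal protein where Cre recombinase acts, and i75-Rod-Cre, in which a rhodopsin promoter drives Cre in rods. The control mice, labelled wt and Pkm2_Rodhet, were Pkm2fl/+ and thus had lost 1 *Pkm2* allele in rods, so no group was without Cre or with 2 intact alleles. The Pkm2_Rodko mice were Pkm2fl/fl. mRNA from the HA pulldown (bead) is called rods, and mRNA of the whole lysate (input) is called retina. Each of the 4 groups had 3 libraries, 12 in all, and the sources do not say whether a library was 1 animal or a pool. The series text gives an age of 2 weeks and the methods give 2 months. The labels state that the animals received a perfusion with cycloheximide, which stalls ribosomes on mRNA.

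Oxidative phosphorylation couples electron transfer along the inner mitochondrial membrane to the synthesis of ATP. Complex I oxidises NADH, complex III passes electrons from ubiquinol to cytochrome c, complex IV reduces oxygen, and complex V (ATP synthase) uses the resulting proton gradient. Most subunits are encoded in the nucleus, translated in the cytosol and imported, and a small catalytic set is encoded and translated inside the mitochondrion. Rod inner segments are packed with mitochondria, and photoreceptors use much oxygen while also making lactate from glucose. *Pkm* encodes pyruvate kinase, the last enzyme of glycolysis, as the splice forms PKM1 and PKM2.

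Library totals ranged from 13458890 to 22790074 reads. Levels are given as counts scaled to library size (CPM), with TMM factors over all 12 libraries. *Pkm*, counted with both splice forms together, was at 3690, 3606 and 3895 CPM in control rods and at 1689, 1583 and 1565 CPM in Pkm2_Rodko rods, without overlap. Its log2 difference was -1.20 (SE 0.08, limma adjusted p = 5.365e-05) in rods and -0.65 (SE 0.07, adjusted p = 0.0219) in retina. The call in rods was lost without the variance trend (adjusted p = 0.0784), and that in retina without the trend (0.277), with 10 reads in every library (0.0933), with the replicate block (0.157) and on leaving out any retina library but replicate 2 of control (0.0627 to 0.949). All 15 rod markers were higher in rods than in retina of control mice and took 20.4 to 21.0% of reads in rods against 6.93 to 7.91% in retina. Among markers of other cells, all 10 of cones, Müller glia, amacrine and ganglion cells were lower in rods. So were all 6 of endothelium, all 6 of microglia and 8 of 10 of bipolar cells. Of all genes tested in this comparison, 23.5% were called higher and 35.5% lower. By these counts the labels of the fractions held. In bulk RNA, fewer cells of a type and less RNA per cell cannot be told apart.

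Among all 87 genes, *Atp5b*, the catalytic beta subunit of ATP synthase, had the highest level per kilobase of transcript in control rods, 1037 ± 27.4 CPM per kilobase (SD, n = 3). It was followed by *Ndufa4*, a complex IV subunit despite its name, at 699 ± 49.0, *Cox4i1*, the common form of subunit 4 of complex IV, at 424 ± 27.2, *Atp5a1*, the alpha subunit of ATP synthase, at 417 ± 13.4, and *Uqcrh*, the hinge protein of complex III, at 350 ± 14.9. The levels of *Cox4i1* and *Atp5a1* differed by less than their SD. By the length of the principal transcript, subunits of 1 complex were far apart in level although the proteins stand in fixed numbers in the complex. In complex I, the core subunit *Ndufs7* was at 79.6 ± 11.7 CPM per kilobase, while the supernumerary subunit *Ndufb2* was at 17.4 ± 1.96. Both levels depend on the annotated length, and no other length was tried for them, so the gap may come from the annotation. *Ndufa11b* had 4 reads in all 12 libraries, and *Cox8c* and a second entry named *Atp5o* had none. Gene copies and pseudogenes may share reads with their parent genes, because the counting rule for reads that match several places is not given in the sources used here.

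**Figure D1:**
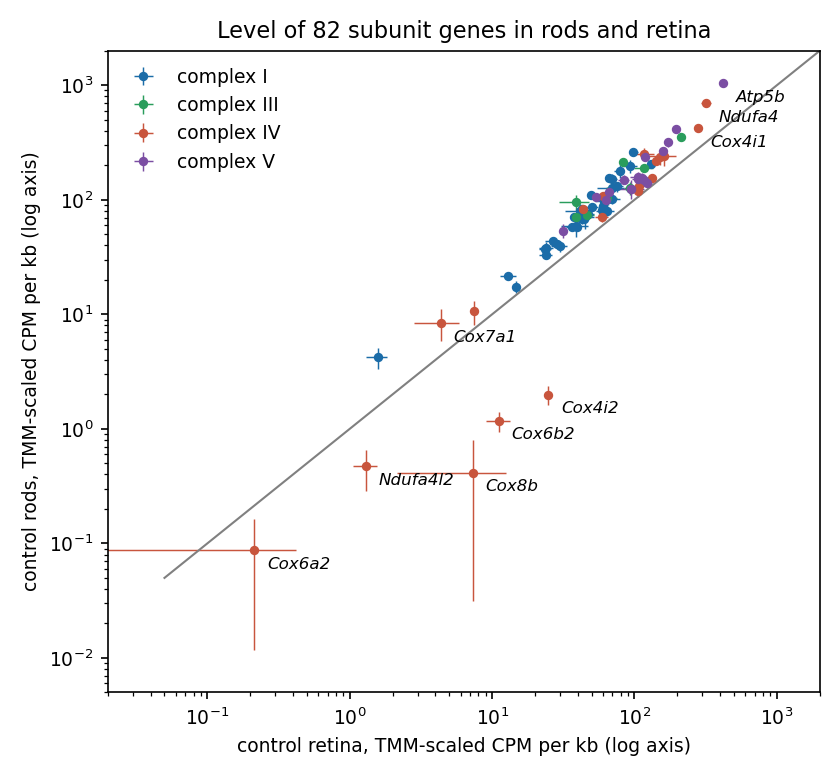
Level of the 82 genes above 0 in both fractions, in control rods and control retina, in TMM-scaled CPM per kilobase of the principal transcript on log axes, coloured by complex (mean of 3 libraries, bars SD, cut short where they would pass 0). The common subunits lie in a band on or above the line of equality, while the tissue isoforms *Cox4i2*, *Cox6b2* and *Cox8b* lie below it.

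In control mice, 72 of the 84 genes tested were higher in rods than in retina and 5 were lower (limma on log2 of scaled reads + 1, adjusted p below 0.05). Of the 5, *Ndufb11b* had no reads in any rod library and could only be called lower. Among all 25584 genes tested, 23.5% were called higher and 35.5% lower, and the median log2 difference was -0.37, against 0.65 for the 84. Of 73 common subunits tested, 69 were higher and none was lower, with log2 differences of 0.16 or more and a median of 0.67, which is 1.04 above the median of all genes. The 3 rod libraries lay above the 3 retina libraries without overlap for 73 of the 84 genes and below them for 4, against 25.2% and 36.6% of all genes.

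The sign of these differences depends on how rods and retina are put on one scale. With the libraries scaled by total reads, the median of all genes moved to -0.76, 54 of the 73 common subunits were above 0, and 23 of all members were called higher and 9 lower. On the authors' values, which were scaled within each fraction, the median of all genes was -0.80 and 51 of the 73 were above 0. All 73 lay above the median of all genes under TMM, RLE, total reads and the authors' scaling. These scalings differ by a factor for each library, which moves all genes by about the same amount. The place of a gene against that median could therefore hardly change, so the count of 73 is no test of the scaling. With genes restricted to at least 10 reads in every library, the median of all genes was 0.24 and 69 of the 73 lay above it, by a median of 0.43 in place of 1.04. Against those genes the medians were 0.72 for complex I core, 0.40 for complex I supernumerary subunits, 0.48 for complex III, 0.39 for the common isoforms of complex IV, 0.75 for F1, 0.53 for the c-ring, 0.55 for the peripheral stalk and 0.16 for the Fo membrane part, all more than 1.5 times below the values against all genes given next. Differences are therefore given below both on the TMM scale and relative to the median of all genes.

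The share of all reads rests on no scaling factor, but like scaling by total reads it depends on the other transcripts in the library. By this share, the 87 genes took 0.908% ± 0.0369 in control rods (range 0.882 to 0.951%) and 0.718% ± 0.0271 in control retina (0.688 to 0.740%). The rod and retina libraries did not overlap. Complex V took 0.405% ± 0.00851 of reads in rods against 0.295% ± 0.00783 in retina, complex I 0.266% ± 0.0141 against 0.214% ± 0.0113 and complex III 0.0889% ± 0.00513 against 0.0684% ± 0.00142, each without overlap. Complex IV took 0.141 to 0.159% in rods and 0.129 to 0.146% in retina, ranges that overlap.

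All 36 common subunits of complex I tested were called higher in rods, with a median 1.32 above that of all genes for the 7 core subunits, which carry the flavin, the iron-sulfur clusters and the quinone site, and 1.01 for the 29 supernumerary subunits around them. The gene copy *Ndufs6b*, with 11 to 35 reads per control library, had a log2 difference of 1.33 (SE 0.39, limma adjusted p = 0.00867), and its adjusted p was 0.0854 with scaling by total reads.

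At the low end of complex I, *Ndufb2* was at 38.27, 40.56 and 47.38 CPM in control rods and 37.80, 35.23 and 33.94 CPM in control retina, just without overlap (log2 0.23, SE 0.09, adjusted p = 0.0364). *Ndufa6*, another supernumerary subunit, was at 47.25, 42.88 and 51.52 CPM in rods and 37.48, 33.98 and 42.77 CPM in retina (log2 0.31, SE 0.12, adjusted p = 0.0399). Both calls were lost under RLE scaling (adjusted p = 0.123 and 0.102), and both signs turned with scaling by total reads (-0.32 and -0.24). *Ndufb11b*, a copy with 7 reads in control retina and none in any rod library, was called lower in rods (limma adjusted p = 0.0421). The call was lost in edgeR (adjusted p = 0.129). This copy passed the minimum level only through retina, so it could only come out lower, and the call is no support.

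In complex III, all 8 genes were higher in rods, with a median 1.08 above that of all genes. *Uqcrc1*, one of the core proteins that face the matrix, was at 359.7, 325.4 and 374.2 CPM in control rods against 133.5, 146.5 and 133 CPM in control retina (2.56-fold, log2 1.36, SE 0.07, adjusted p = 5.53e-10). Its partner *Uqcrc2* was at 132.3, 135.9 and 146.5 CPM against 88.73, 97.57 and 78.27 CPM, a 1.57-fold difference (log2 0.65, SE 0.09). Per kilobase, *Uqcrc1* was thus at 214 ± 15.2 and *Uqcrc2* at 72.9 ± 3.88 in rods, although the proteins form a pair. *Uqcrq*, a small supernumerary subunit, varied more between libraries, with 89.51, 78.59 and 106.4 CPM in rods and 35.50, 29.60 and 47.19 CPM in retina (log2 1.30, SE 0.20). *Uqcr10*, the smallest difference of the complex, was at 52.51, 48.96 and 63.23 CPM against 42.82, 35.83 and 42.77 CPM (log2 0.44, SE 0.14, adjusted p = 0.0144). The catalytic Rieske iron-sulfur protein *Uqcrfs1* lay between them (log2 0.88).

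Complex V had 15 of 17 genes called higher in rods and none lower. The 5 subunits of the F1 head, where ATP is made, were all higher, with a median 1.35 above that of all genes, and the 3 genes of the c-ring (1.13) and 4 of the peripheral stalk (1.15) followed. Of the 5 small subunits of the Fo membrane part tested, 3 were called higher (0.77). *Atp5b* was at 2023, 1927 and 2012 CPM in control rods against 818.5, 828.3 and 767.2 CPM in control retina (2.47-fold, log2 1.31, SE 0.07, adjusted p = 4.14e-10). *Atp5a1* was at 1056, 992.5 and 1041 CPM against 486.4, 507 and 467.7 CPM (log2 1.08, SE 0.07).

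At the other end of complex V, *Atp5md*, a small membrane subunit, was at 47.25, 50.81 and 53.99 CPM in rods against 48.44, 41.26 and 42.21 CPM in retina, which overlap (log2 0.21, SE 0.10, adjusted p = 0.0916, and 0.0497 with the replicate block). *Atp5mpl*, another small membrane subunit, was at 69.74, 72.35 and 78.12 CPM against 58.85, 55.91 and 55.06 CPM (log2 0.37, SE 0.11, adjusted p = 0.00736). With scaling by total reads the signs of both turned (-0.34 and -0.18). The F1 genes together took 0.288% ± 0.00267 of reads in rods against 0.188% ± 0.00351 in retina, without overlap, while the Fo membrane genes took 0.0303% ± 0.00188 against 0.0311% ± 0.00284 and overlapped.

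**Figure D2:**
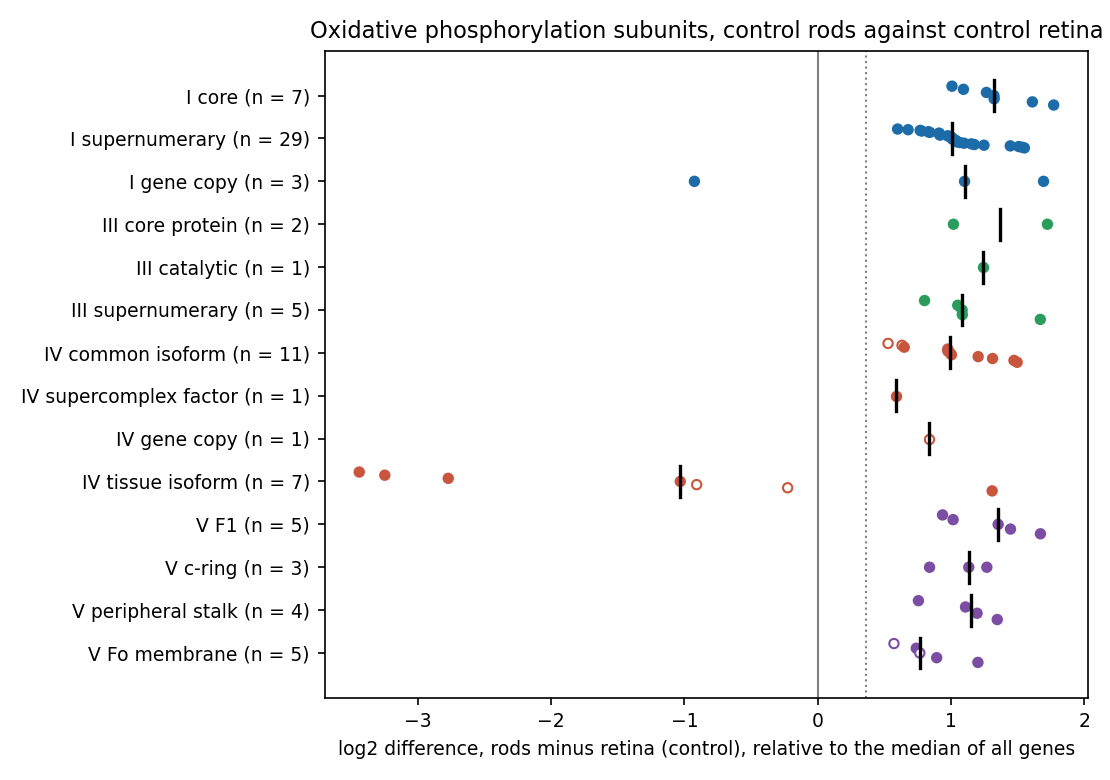
Log2 difference between rods and retina in control mice for each gene tested, relative to the median of all genes and grouped by role in the complex. Filled points passed the limma test and open points did not, black ticks mark medians, the grey line at 0 is the median of all genes and the dotted line is no difference on the TMM scale; the medians of complex I core (1.32) and F1 (1.35) lie far to the right and the tissue isoforms of complex IV farthest to the left.

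In complex IV, 9 of the 11 common isoforms tested were called higher in rods and none lower, with a median 0.99 above that of all genes. *Ndufa4* was at 358.1, 354.1 and 401.1 CPM in control rods against 182.8, 168.5 and 157.3 CPM in control retina (2.19-fold, log2 1.13, SE 0.12, adjusted p = 6.5e-07). *Cox6a1*, the common form of subunit 6a, was at 140, 127.4 and 162.3 CPM against 65.11, 56.21 and 79.16 CPM (log2 1.11, SE 0.15). *Cox4i1* was at 317.7, 300.6 and 341.4 CPM against 215.3, 195.3 and 218.1 CPM (log2 0.61, SE 0.11), and *Cox6b1*, *Cox6c* and *Cox8a* differed by 0.64, 0.63 and 0.61. The libraries of *Cox8a* overlapped, with 108.3 to 156.4 CPM in rods and 72.1 to 110.4 CPM in retina.

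On the TMM scale, the common subunit 7 genes had the smallest differences of complex IV. *Cox7c* was at 59.40, 61.43 and 72.83 CPM in rods against 62.58, 52.72 and 57.51 CPM in retina (log2 0.16, SE 0.14, adjusted p = 0.328), and with scaling by total reads it was lower in rods (log2 -0.39, adjusted p = 0.0231). *Cox7b* had a log2 difference of 0.27 (which did not pass the test, with an adjusted p of 0.0396 under the replicate block) and *Cox7a2* one of 0.28 (adjusted p = 0.0403, and 0.112 under RLE scaling). *Cox7a2l*, which links complexes III and IV into supercomplexes, was at 159.2, 166.7 and 173.5 CPM in rods and 151.1, 136.4 and 140.3 CPM in retina (log2 0.22, SE 0.09, adjusted p = 0.0349, and 0.126 under RLE scaling). With scaling by total reads, *Cox7a2l* was lower in rods (log2 -0.33, adjusted p = 0.0037), and it took 0.0138% ± 0.000646 of reads in rods against 0.0173% ± 0.000945 in retina. On that scale *Cox4i1* and *Cox8a* were at 0.059 and *Cox6b1* at 0.087, none of them called.

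Transcript length moved with the rods-retina difference. Over 9507 genes with a mean of at least 10 CPM, the Spearman correlation of length with the log2 difference was -0.27, while over the 73 such members it was 0.36, given as a description across genes that share libraries. The members are short, with a median of 755 bases against 2993 for all these genes. Between 500 and 1000 bases, the median log2 difference was 0.67 for 43 members and 0.48 for 602 genes, and between 1000 and 2000 bases it was 0.66 for 18 members and 0.53 for 1864 genes. Below 500 bases it was 0.44 for 7 members and 0.37 for 122 genes, and between 2000 and 4000 bases it was 0.77 for 5 members and 0.36 for 3912 genes. In each of these classes the members lay above the median by less than the 1.04 found against all genes tested. Level was not matched beyond the minimum of 10 CPM. The part of length in the differences was not tested.

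**Figure D3:**
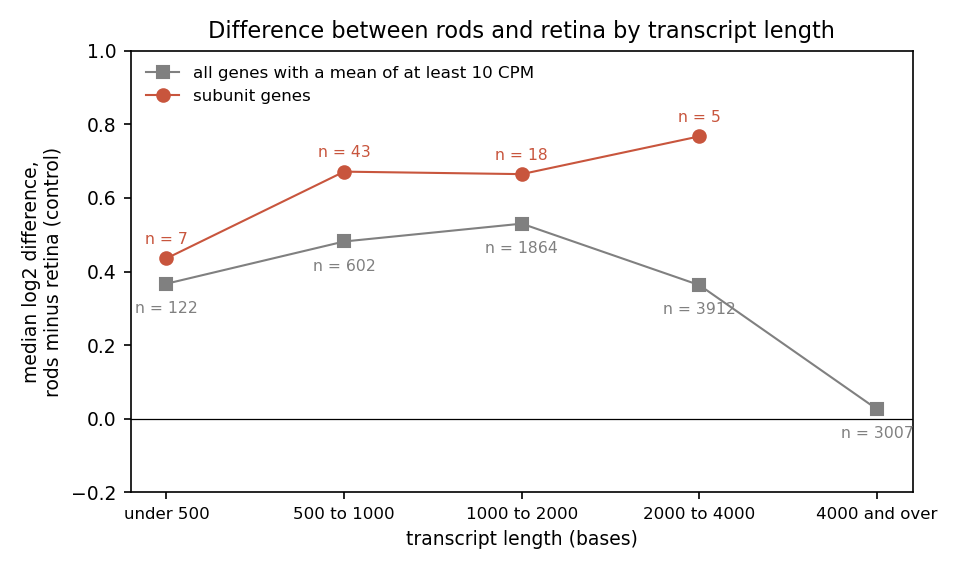
Median log2 difference between rods and retina in control mice by class of transcript length in bases, for the subunit genes and for all genes with a mean of at least 10 CPM, with the number of genes in each class. Most subunit genes lie between 500 and 2000 bases, with class medians of 0.67 and 0.66 against 0.48 and 0.53 for all genes.

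Several complex IV subunits come in a common form and a form known from particular tissues, and here the pairs parted. *Cox4i2*, the form of subunit 4 known from lung and induced by low oxygen, was at 1.632, 1.134 and 1.585 CPM in control rods and at 18.60, 17.94 and 17.91 CPM in control retina. All rod libraries lay far below all retina libraries, at 0.0799 times the retinal level (log2 -3.61, SE 0.19, adjusted p = 3.27e-10, and -3.25 relative to all genes). In Pkm2_Rodko mice the libraries were at 0.937, 1.204 and 1.17 CPM in rods and at 18.11, 15.67 and 15.43 CPM in retina (log2 -3.83). *Cox4i2* made up 0.465% ± 0.0709 of the subunit 4 transcripts per kilobase in control rods and 8.24% ± 0.423 in control retina, and the remainder was *Cox4i1*. With the union of all exons as length these shares were 0.881% and 14.6%.

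*Cox6b2*, the form of subunit 6b known from testis, was at 0.544, 0.618 and 0.793 CPM in control rods and at 6.262, 4.933 and 7.349 CPM in control retina (log2 -3.14, SE 0.31, adjusted p = 3.68e-07). In Pkm2_Rodko mice it was at 1.297, 0.677 and 0.669 CPM in rods and at 7.302, 5.181 and 4.461 CPM in retina (log2 -2.64). No rod library reached a retina library in either genotype. Its share against *Cox6b1* was 0.533% ± 0.0673 in control rods and 7.34% ± 1.17 in control retina, or 0.305% and 4.33% with the exon union as length.

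*Cox8b*, the heart and muscle form of subunit 8, had 3, 0 and 2 reads in control rods and 49, 20 and 116 reads in control retina, and 7, 3 and 2 against 59, 44 and 20 reads in Pkm2_Rodko mice. The log2 difference was -3.80 (SE 0.71, adjusted p = 0.000241) in control and -2.63 (SE 0.71, adjusted p = 0.00445) in Pkm2_Rodko mice, where it was 0.0535 with a pseudocount of 0.1. Its share against *Cox8a* was 0.159% ± 0.152 in control rods and 4.06% ± 1.99 in control retina, or 0.104% and 2.70% of reads as counted. *Cox8c* had no reads.

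*Ndufa4l2*, a relative of *Ndufa4* that rises in low oxygen, had 3, 12 and 5 reads in control rods against 21, 25 and 36 reads in control retina (log2 -1.40, SE 0.54, adjusted p = 0.0366). That call was lost on leaving out any of 5 of the 6 control libraries, with an adjusted p up to 0.130, and the adjusted p was 0.207 with a pseudocount of 0.1. In Pkm2_Rodko mice it had 2, 1 and 0 reads against 37, 25 and 12 reads (log2 -3.32, adjusted p = 6.8e-05). By summed reads, the level in Pkm2_Rodko rods was 0.0567 times that in retina, with an exact 95% interval of 0.0114 to 0.172 that covers counting error only.

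*Cox7a1*, the heart and muscle form of subunit 7a, went the other way. It was at 3.174, 2.371 and 4.403 CPM in control rods and 1.566, 1.196 and 2.369 CPM in control retina, with 24 to 59 reads per library (log2 0.94, SE 0.37, adjusted p = 0.038). The call was lost under RLE scaling (adjusted p = 0.0518) and on leaving out replicate 1 or 3 of control rods or replicate 1 or 2 of control retina (adjusted p up to 0.147). In Pkm2_Rodko mice the difference was 0.72 (adjusted p = 0.106, and 0.0353 with the replicate block). Its share among the *Cox7a* genes was 2.85% ± 0.776 in control rods and 1.77% ± 0.570 in control retina. *Cox6a2*, the heart and muscle form of subunit 6a, had at most 9 reads in a library, and *Cox7b2*, known from testis, had none in any rod library and at most 8 in retina, so neither could be placed.

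The 3 genes of the c-ring encode the same mature protein behind different import signals. In control rods, *Atp5g3* made up 60.4% ± 0.426 of c-ring transcripts per kilobase, *Atp5g2* 29.5% ± 0.0766 and *Atp5g1* 10.1% ± 0.502. In control retina the shares were 54.3% ± 1.26, 35.7% ± 1.77 and 9.98% ± 0.533. The share of *Atp5g1* depended on the length used, at 15.4% and 15.2% with the exon union and 30.8% in both fractions by reads as counted. The share of *Atp5g3* was higher and that of *Atp5g2* lower in rods without overlap of the SDs, and that of *Atp5g1* differed by less than its SD. The log2 differences between rods and retina were 0.90, 0.47 and 0.77 for *Atp5g3*, *Atp5g2* and *Atp5g1*.

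**Figure D4:**
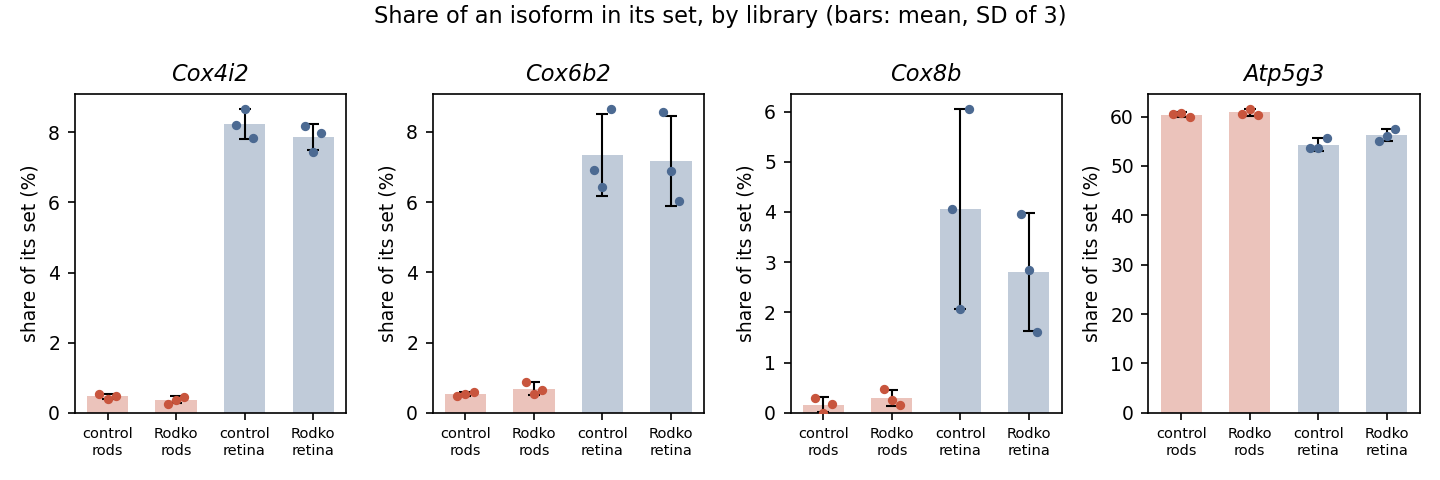
Share of *Cox4i2*, *Cox6b2*, *Cox8b* and *Atp5g3* in their sets, in percent of transcripts per kilobase, by group (points are libraries, bars the mean and error bars the SD of 3). *Cox4i2*, *Cox6b2* and *Cox8b* are under 1% in all rod libraries and higher in every retina library, and *Atp5g3* is higher in rods than in retina.

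Markers of Müller glia and endothelium were lower in rods than in retina. So were all or most markers of the other cells listed above, the lower tissue isoforms and 35.5% of all genes. No test singled out Müller glia and endothelium from the other cells. The summed level of the 10 Müller glia markers was 507 to 660 CPM in control rods against 4046 to 4466 CPM in control retina, and that of the 6 endothelial markers 23.6 to 32.8 against 177 to 210 CPM. No gene of either list was at 0, and their median log2 differences were -2.91 and -2.90. Of 8 striated muscle markers, *Myh1*, *Myh4* and *Tnnt3* had no reads in control libraries. The other markers of this list made up its summed level of 4.23 to 6.89 CPM in rods and 4.19 to 4.42 CPM in retina. Of 5 germ cell markers, *Prm2* was at 0, and *Prm1* made up nearly all of the summed 285 to 328 CPM in rods, against at most 131 CPM in retina. That sum thus rests on *Prm1* and is not read here as a level of germ cells. The part of other cells in the isoform differences was not tested.

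Promoter sequences from RefSeq (GRCm38.p6, 250 bases before to 50 after the annotated start) matched 66 of the 87 genes, of which 62 are common subunits and 4 are tissue isoforms. The motifs searched on both strands were those of NRF1 (GCGCATGC, or GCGC repeated after a spacer of any 2 bases, forms that overlap), ETS factors such as GABPA (CCGGAAG), YY1 (AAGATGGCG), estrogen-related receptors (AAGGTCA), the photoreceptor factor CRX (TAATCC), and the CCAAT box. The TATA box was searched as TATAAA. NRF1 and GABPA are known activators of respiratory chain genes. Either NRF1 motif stood in 27.4% of common subunit promoters and in 10.6% of 17491 protein-coding promoters, and the ETS motif in 22.6% against 11.9%. YY1 was found in 9.68% against 1.94% and the estrogen-related receptor motif in 11.3% against 4.08%. CRX stood in 8.06% against 6.48%, CCAAT in 40.3% against 39.0% and TATA in 9.68% against 13.3%. Of the 4 tissue isoform promoters, none held an NRF1, ETS, YY1 or estrogen-related receptor motif and 2 held TATA. All 4 belong to complex IV, and a difference from the common subunits was not tested. Of the 10 common subunit promoters of complex IV, 1 held an NRF1 motif and 3 held the ETS motif. None of the 10 held YY1, the estrogen-related receptor motif or TATA. These are matches of letters in the window and not measured sites.

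The windows below show *Uqcrc1*, with one of the largest rods-retina differences of a common subunit, and the pairs *Cox6b1* with *Cox6b2* and *Cox8a* with *Cox8b*, whose members differed in opposite directions between rods and retina on the TMM scale. Capitals mark the NRF1 motifs in *Uqcrc1* (chr9:108936398-108936697, plus strand, first bases at 6 and 31 after the start), the ETS motif on its reverse strand in *Cox6b1* (chr7:30626065-30626364, minus strand, 28 bases before the start) and *Cox8a* (chr19:7217567-7217866, minus strand, 5 bases before and 33 after), the CRX motif on its reverse strand in *Cox6b2* (chr7:4753045-4753344, minus strand, 160 bases before) and TATA in *Cox8b* (chr7:140900397-140900696, minus strand, 5 after).
Uqcrc1: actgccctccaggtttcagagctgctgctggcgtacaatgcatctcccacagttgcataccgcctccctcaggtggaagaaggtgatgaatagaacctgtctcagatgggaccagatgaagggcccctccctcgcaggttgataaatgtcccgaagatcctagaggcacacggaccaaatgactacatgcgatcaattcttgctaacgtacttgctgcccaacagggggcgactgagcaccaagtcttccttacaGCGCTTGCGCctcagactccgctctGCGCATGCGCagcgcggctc
Cox6b1: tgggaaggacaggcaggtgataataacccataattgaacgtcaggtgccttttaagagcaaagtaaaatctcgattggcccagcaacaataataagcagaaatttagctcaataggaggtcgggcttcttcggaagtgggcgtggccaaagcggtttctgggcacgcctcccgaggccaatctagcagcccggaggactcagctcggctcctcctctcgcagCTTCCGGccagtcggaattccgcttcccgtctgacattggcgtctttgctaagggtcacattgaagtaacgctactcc
Cox6b2: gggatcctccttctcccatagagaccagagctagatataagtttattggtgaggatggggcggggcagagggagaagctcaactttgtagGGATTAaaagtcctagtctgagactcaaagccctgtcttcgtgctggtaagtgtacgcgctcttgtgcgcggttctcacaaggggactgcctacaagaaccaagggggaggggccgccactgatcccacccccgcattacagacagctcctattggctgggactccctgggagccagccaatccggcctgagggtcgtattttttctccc
Cox8a: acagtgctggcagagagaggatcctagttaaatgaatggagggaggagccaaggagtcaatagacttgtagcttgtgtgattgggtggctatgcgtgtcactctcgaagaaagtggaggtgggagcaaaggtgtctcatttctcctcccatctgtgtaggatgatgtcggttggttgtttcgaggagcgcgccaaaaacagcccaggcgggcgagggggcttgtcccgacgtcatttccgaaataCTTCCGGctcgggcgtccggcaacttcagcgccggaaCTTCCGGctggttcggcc
Cox8b: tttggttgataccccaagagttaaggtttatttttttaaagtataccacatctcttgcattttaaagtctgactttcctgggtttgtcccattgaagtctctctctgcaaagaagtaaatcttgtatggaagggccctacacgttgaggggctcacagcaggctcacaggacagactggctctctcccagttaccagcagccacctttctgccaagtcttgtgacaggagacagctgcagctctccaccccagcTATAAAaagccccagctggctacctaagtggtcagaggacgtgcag

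Other genes of the pathway were read from the same test in control mice, in which 23.5% of all genes were called higher and 35.5% lower. They were read on the TMM scale only. With scaling by total reads, 8.43% of all genes were called higher and 49.1% lower, so small differences here may not hold. All 4 genes of complex II, the nuclear-encoded succinate dehydrogenase, were higher in rods, with log2 differences of 0.99 for *Sdha*, 0.95 for *Sdhc*, 0.74 for *Sdhd* and 0.38 for *Sdhb*. Of 6 tested subunits and carriers outside the symbol rule, 3 were higher, among them *Cyc1*, the cytochrome c1 of complex III (0.82), and *Cycs*, cytochrome c (0.67), while *Ndufab1*, the acyl carrier protein of complex I, had a difference of 0.04. Assembly factors were higher in 14 of 16 for complex I, 3 of 6 for complex III, 15 of 25 for complex IV and 3 of 4 for complex V. *Uqcc3*, an assembly factor of complex III, had the largest log2 difference in its list (1.40). The only assembly factors called lower were *Cox17*, which carries copper to complex IV (-1.78), *Coa5* (-0.61) and *Higd1a* (-0.31). Of 14 transcriptional regulators, 11 were higher, among them *Nrf1* (1.35), *Gabpb1* (1.11), *Ppargc1a* (0.91) and *Esrrb* (1.92), a receptor known to be abundant in rods.

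The 13 mitochondrially encoded subunits went in the opposite direction to their nuclear partners. All 13 were lower in rods of control mice, with a median 3.78 below that of all genes, and they took 0.250% ± 0.0565 of reads in rods against 6.39% ± 0.541 in retina. Mitochondrial mRNA is translated by mitochondrial ribosomes, which are separate from the tagged cytosolic ones, so the pulldown gives no level of these transcripts in rods.

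In Pkm2_Rodko mice, 73 of 84 genes were higher in rods than in retina and 4 were lower, against 23.9% and 35.1% of all genes, and 72 of 73 common subunits were higher. Their median lay 1.09 above that of all genes, or 0.50 above that of genes with 10 reads in every library. *Uqcrc1* had a log2 difference of 1.32 and *Atp5b* one of 1.37. *Ndufa4* was at 446.5, 376.9 and 310.9 CPM in rods and 172.2, 142.1 and 136.6 CPM in retina (log2 1.32). The 4 genes called lower were *Cox4i2*, *Cox6b2*, *Cox8b* and *Ndufa4l2*.

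Whether deletion of *Pkm2* in rods moved these genes was read from the authors' values within each fraction. None of the 81 genes tested in rods and none of the 85 in retina passed an adjusted p of 0.05 by limma, edgeR or DESeq2, against 0.0194% of all genes in rods and 0.00391% in retina by limma. At an unadjusted p below 0.05 there was 1 gene in rods (background 4.77%) and none in retina (4.18%). The difference between the genotype effects in rods and retina passed the adjusted threshold for none of 84 genes and the unadjusted one for 1 (4.41%).

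The 73 common subunits had log2 genotype differences in rods from -0.20 to 0.17, with a median of 0.011 and SE from 0.0787 to 0.204. All 73 of the 95% intervals held 0, and 72 lay within 0.5 of it in both directions. In retina the differences ran from -0.22 to 0.27, with a median of -0.038, and 71 intervals lay within 0.5. In data simulated at the depth of the rod libraries, limma called 88% of genes changed by a log2 difference of 1 and 56% at 0.75. Smaller changes of single genes could thus be missed. The simulation gave every gene the same dispersion, changed only genes above a minimum of reads and held no shift of a whole library. These rates may therefore be too high for the real data.

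*Ndufa4l2* had the smallest p in rods. Its 20 reads in control rods stood against 3 in Pkm2_Rodko rods, where no library reached the lowest control library (log2 -1.92, 95% interval -3.24 to -0.59, unadjusted p = 0.00813, limma adjusted p = 0.932). By summed reads the ratio was 0.139, with an exact counting interval of 0.0264 to 0.469. In retina, with 82 reads in control and 74 in Pkm2_Rodko mice, the ratio was 0.954 (0.687 to 1.32). The difference between the effects in rods and retina had an unadjusted p of 0.0239 (limma adjusted p = 0.978). The next smallest p in rods belonged to *Ndufc1* and *Ndufb2*, complex I subunits with log2 differences of -0.20 and 0.17 (unadjusted p = 0.119 and 0.144), and to *Cox8b* (0.80) and *Ndufs7* (-0.15).

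In retina the smallest p belonged to *Atp5mpl*, whose values were 1245, 1196 and 1176 in control and 1162, 983 and 1047 in Pkm2_Rodko mice (scaled reads of the authors, log2 -0.18, unadjusted p = 0.0508, limma adjusted p = 0.947). *Ndufs7*, a core subunit of complex I, had a log2 difference of 0.27 (unadjusted p = 0.0557) and *Cox7c* one of -0.22 (0.0561), with overlapping libraries. *Cox8a* (0.24) and *Ndufb11b* (-1.40, from 7 reads in control and none in Pkm2_Rodko retina) completed the 5 smallest. Groups did not overlap for 1 gene higher (*Ndufa9*) and 1 lower (*Ndufa4l2*) in rods, against 4.49% and 5.40% of all genes, and for 3 lower (*Atp5mpl*, *Ndufv3* and *Ndufb9*) and none higher in retina, against 4.76% and 4.53%. *Ndufa9*, *Ndufv3* and *Ndufb9* are named because of these counts and were chosen after their values were seen.

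**Figure D5:**
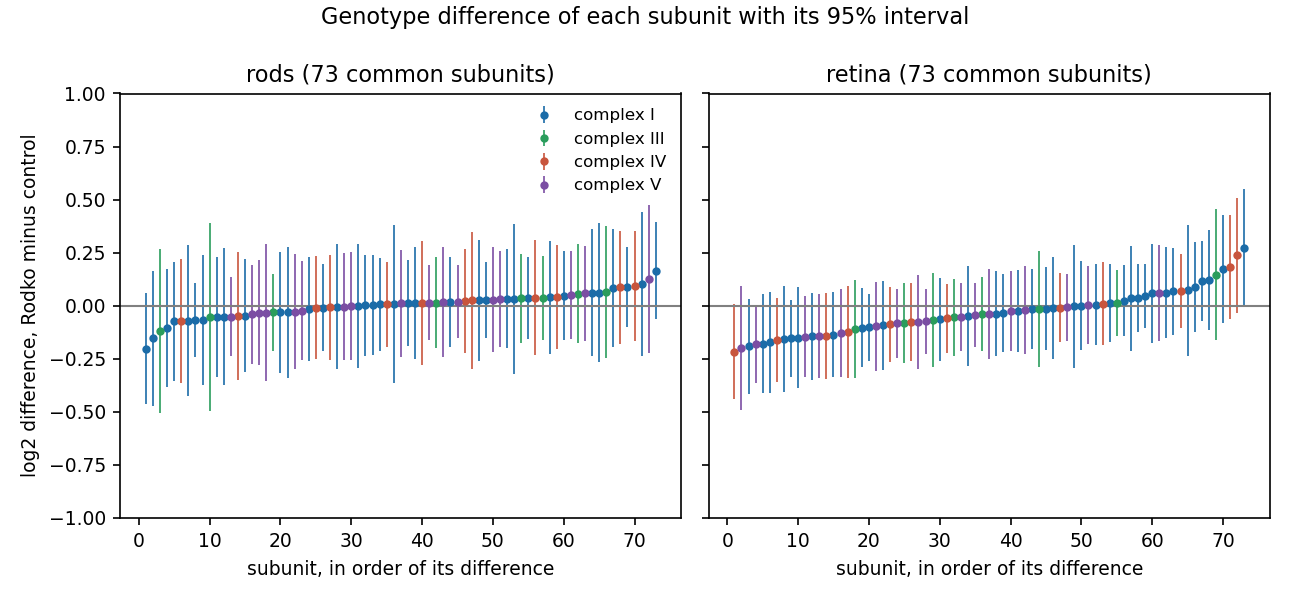
Log2 genotype difference (Pkm2_Rodko minus control) of the 73 common subunits in rods and in retina, in order of the difference and coloured by complex, with 95% intervals from limma. Every interval holds 0, and the medians are 0.011 in rods and -0.038 in retina.

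Single libraries moved the common subunits together. The share of reads on all 87 genes ran from 0.804 to 0.995% among the 3 Pkm2_Rodko rod libraries, against 0.882 to 0.951% in control rods. Without replicate 3 of Pkm2_Rodko rods, 67 of the 73 genotype differences in rods were above 0 (median 0.105), and without replicate 1, 66 of 73 were below 0 (median -0.0977). The signs in rods therefore rest on single libraries. In retina, 49 of 73 common subunits and 15 of 17 complex V genes were below 0, against 51.0% of all genes, and leaving out 1 library in turn gave between 38 and 60 of the 73.

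Other genes of the pathway also stayed above the adjusted threshold between genotypes. Complex II had a median log2 difference of 0.022 in rods and -0.0059 in retina, and the 14 regulators had 0.12 and 0.14. The 13 mitochondrially encoded genes were all below 0 in rods (median -0.53), and none passed after adjustment. By limma, 11 of them had an unadjusted p below 0.05 (4.77% of all genes). As stated above, the pulldown gives no level of these transcripts in rods. The 13 genes also share the same libraries, so they are not separate results. In retina all 13 were also below 0 (median -0.11), 1 of them with an unadjusted p below 0.05 (4.18% of all genes). Markers of other cells had median log2 genotype differences in rods of -0.42 for bipolar cells, -0.35 for Müller glia, -0.49 for amacrine cells, -0.40 for ganglion cells, -0.28 for endothelium, -0.098 for cones and -0.089 for microglia, and in retina of -0.18, -0.15, -0.069, -0.058, -0.14, -0.088 and -0.25 in the same order. No marker passed after adjustment. The summed endothelial level was 23.6 to 32.8 CPM in control and 16.4 to 23.0 CPM in Pkm2_Rodko rods. In retina the summed levels did not overlap for Müller glia (4046 to 4466 against 3604 to 3955 CPM) and cones (956 to 1023 against 899 to 930 CPM). Those of bipolar cells did not overlap either (1323 to 1387 against 1072 to 1317 CPM). The sums of the other lists are not given here. Of all single genes in retina, 4.76% were lower and 4.53% higher without overlap, and no such share was computed for summed lists. These values stand beside the lower reads of *Ndufa4l2* in Pkm2_Rodko rods, and their part in it was not tested.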

How the data were processed

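Polyribosome-bound mRNA of rods and mRNA of whole retina were sequenced in 12 libraries, 3 in each of 4 groups given by the labels. The submitters' processing notes name HISAT2, DESeq2, edgeR, CASAVA 1.8.2 and GRCm39, and the read counter, annotation and use of strand are not given in the sources used here. The deposited values are a signal: the authors divided the reads of each gene by a size factor set within each fraction and rounded the quotient to 1 decimal. Whole reads were recovered from the steps between values, and 99.9996% of positive values came out whole. Depth was 13458890 to 22790074 reads per library, and no replicates were copies of each other.

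Genotypes were compared within a fraction by limma 3.58.1 (R 4.3.3) with a variance trend on log2(value + 1), for genes with a mean of at least 1 in 1 genotype. Rods and retina, and the difference of genotype effects, were compared in 1 limma fit of all 12 libraries on recovered reads scaled by TMM, as log2(scaled reads + 1), which understates changes of low genes. The design written for this work allowed for scaled values, so no test was changed. P-values were adjusted by Benjamini-Hochberg over all genes tested, and they measure the spread between libraries, which may be technical. Levels between genes were divided by the length of the GENCODE vM21 principal transcript. Replicate numbers pair rods with retina, since deviations from group means over 10809 genes correlated between same-numbered libraries in all 6 pairs (r = 0.225 to 0.521).

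Named genes were the isoform sets, the 2 highest and 2 lowest differences per complex, the 5 smallest p per genotype comparison and the 5 highest levels. Of these, 1 gene is not reported here. The genes and lists were chosen with earlier results of these data known. Alternatives were edgeR 4.0.16, DESeq2 1.42.0, RLE or total-read scaling, the authors' values, no variance trend, a pseudocount of 0.1, no filter or 10 reads in every library, the replicate block, and leaving out each library. The exon union as length was added after seeing the data. Tests were checked on simulated data with 200 changed genes, the same dispersion for every gene and no shift of a whole library. In the simulated genotype comparison in rods, over 20438 genes, limma called 100% of genes changed by a log2 difference of 2, 96% at 1.5, 88% at 1 and 56% at 0.75, with 6 wrong calls. For the difference of effects over 25496 genes it called 38% at 1 and 80% at 1.5. Python 3.11.15, pandas 2.3.3, numpy 2.4.6 and matplotlib 3.10.9 were used for the rest. Coordinates and promoters are from RefSeq on GRCm38.p6, and no coordinate was taken from the deposited table.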

Additional observations from a re-analysis of the deposited data

How the results depend on the processing

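The counts that depend on the common scale of rods and retina moved most. In control mice, 72 genes were higher and 5 lower, and these counts became 20 and 11 on the authors' values and 23 and 9 with scaling by total reads. With at least 10 reads in every library 1 gene was lower. The others called lower had fewer reads and were not tested there, with 2 tissue isoforms tested in place of 7. Leaving out 1 library gave 61 to 74 higher and 3 to 5 lower. In Pkm2_Rodko mice, 73 were higher and 4 lower, against 22 and 8 on the authors' values and 24 and 8 by total reads. With 10 reads in every library 1 was lower, and the others called lower were again not tested. Leaving out 1 library gave 63 to 77 higher and 4 lower.

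On the authors' values, 22 of the 73 common subunits turned negative in control mice, and among the genes named these were *Atp5g2* (-0.12), *Atp5md* (-0.39), *Atp5mpl* (-0.22), *Cox7a2* (-0.31), *Cox7a2l* (-0.37), *Cox7b* (-0.33), *Cox7c* (-0.43), *Ndufa6* (-0.28), *Ndufb2* (-0.36), *Ndufc1* (-0.044) and *Uqcr10* (-0.16), with the gene copy *Cox6c2* (-0.11) besides. By total reads 19 of the 73 turned, among them *Atp5g2* (-0.077), *Atp5md* (-0.34), *Atp5mpl* (-0.18), *Cox7a2* (-0.27), *Cox7a2l* (-0.33), *Cox7b* (-0.28), *Cox7c* (-0.39), *Ndufa6* (-0.24), *Ndufb2* (-0.32) and *Uqcr10* (-0.11), and so did *Cox6c2* (-0.069). The authors' values were scaled within each fraction. Scaling by total reads leaves out the TMM factors, which were 0.815 to 0.851 in control rods and 1.20 to 1.23 in control retina. This lowers every difference between rods and retina by about the same amount. The counts of 0 between genotypes, and for the difference of effects, were 0 under every alternative run.

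With exon union lengths in place of the principal transcript, the share of *Cox4i2* was 0.881% in control rods, 0.697% in Pkm2_Rodko rods, 14.6% in control retina and 14.0% in Pkm2_Rodko retina, and that of *Cox6b2* was 0.305, 0.395, 4.33 and 4.23%. In control rods and control retina the union gave 15.4 and 15.2% for *Atp5g1* and 55.7 and 49.9% for *Atp5g3*, and 28.9% for *Atp5g2* in rods. Reads as counted gave 30.8 and 30.8% for *Atp5g1*, 19.7 and 24.2% for *Atp5g2* and 49.5 and 45.0% for *Atp5g3*.

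With the replicate block, which pairs rods with retina, 75 genes were higher and 5 lower in control and 74 and 4 in Pkm2_Rodko mice. It added calls for *Atp5md*, *Cox7b* and, in Pkm2_Rodko mice, *Cox7a1* and changed no other call among the genes named. Between genotypes the numbers do not pair the libraries (r = -0.29 to 0.132), and the block left 0 calls. Genes under about 10 reads per library (*Cox6a2*, *Cox7b2*, *Ndufb11b*, *Ndufa4l2* and *Cox8b* in rods) are limited by depth.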
